A study of Mus musculus with 21 samples.

Results

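The B cell antigen receptor and the membrane proteins that tune it were described through 8 genes in mouse germinal centre B cells with and without the RNA-binding protein PTBP1. The genes were Cd79a, Cd79b, Cr2, Cd81, Cd22, Cd72, Fcgr2b and Ptpn6, chosen by name out of 47729 gene identifiers in the count files. Earlier results of these data were known when they were chosen. Each of the 8 had 1 identifier, and 8 of 8 passed the filter on low counts that left 15789 genes for testing.

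The antigen receptor is a membrane immunoglobulin held by a heterodimer of CD79A and CD79B, whose cytoplasmic tails are phosphorylated when antigen is bound. CR2 (CD21), which binds complement fragments on antigen, and the tetraspanin CD81 belong to the coreceptor complex that strengthens the signal. CD22, CD72 and the IgG Fc receptor FCGR2B weaken it, and PTPN6 (SHP-1) is the tyrosine phosphatase that CD22 and CD72 recruit. In germinal centres, B cells divide and mutate their antibody genes in a dark zone (DZ) and capture antigen through this receptor in a light zone (LZ), where they compete for T cell help.

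Poly(A) RNA was sequenced from 16 libraries of sorted light or dark zone B cells, 4 in each of 4 groups, from C57BL/6 mice immunised 7 days earlier with NP-KLH in alum. Control mice were CD79a+/+ Ptbp1 fl/fl. Conditional knockout (cKO) mice were CD79a cre/+ Ptbp1 fl/fl, so that both genotypes carried the loxP-flanked Ptbp1 alleles and the cKO mice carried 1 Cre allele of Cd79a, whose activity follows the B lineage. No mice with Cre and intact Ptbp1 were among the samples used here. For every gene, effects of the Cre allele and of the loss of PTBP1 therefore cannot be told apart. This includes Cd79a itself, the carrier of the allele. Spleen cells of 3 to 5 mice, alike in genotype and sex, made up each of 8 pools, and both zones were sorted from every pool. One pool of each genotype was sorted on each of days 1 to 4, with males on days 1 and 2 and females on days 3 and 4. A further 5 libraries mapped RNA crosslinked to PTBP1 by iCLIP, a method that recovers the bases a protein touches after UV crosslinking, in splenic B cells cultured with lipopolysaccharide for 48 h, which are not germinal centre cells.

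Gene counts summed to 26823882 to 34240096 per library. Ptbp1, the targeted gene, had a mean of 382 ± 28.9 CPM in LZ control and 98.6 ± 16.4 in LZ cKO libraries, and of 444 ± 31.4 and 103 ± 9.45 CPM in the dark zone (SD, n = 4). CPM are counts per 1000000 counts of a TMM-scaled library, and they are not divided by gene length, so levels are compared between libraries and not between genes. Of 6 light zone genes fixed as markers, 6 were higher in the light zone in both genotypes, and 3 of 5 dark zone genes were lower there. Over all genes, 4.16% were higher and 3.33% lower in the light zone of control mice, and 4.91% and 4.18% in cKO mice. A summed panel of 10 macrophage genes ranged from 14.7 to 1223 CPM and was lowest in a DZ control and highest in a DZ cKO library. In bulk RNA, fewer cells of a type and less RNA per cell cannot be told apart.

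The promoters of the genes that differed between genotypes are shown first, because Cd79a, Cr2 and Fcgr2b are the ones that the genotype results turn on. They are upstream bases from RefSeq on GRCm38.p6, and 7 of the 8 genes had an entry. Capitals mark GGAA or its reverse complement TTCC, the core bound by ETS factors such as PU.1 and SPIB. The Cd79a stretch is chr7:24897247-24897496 on the plus strand, the Cr2 stretch is chr1:195176881-195176969 on the minus strand, limited to the bases outside the gene's span, and the Fcgr2b stretch is chr1:170976072-170976321 on the minus strand.
Cd79a: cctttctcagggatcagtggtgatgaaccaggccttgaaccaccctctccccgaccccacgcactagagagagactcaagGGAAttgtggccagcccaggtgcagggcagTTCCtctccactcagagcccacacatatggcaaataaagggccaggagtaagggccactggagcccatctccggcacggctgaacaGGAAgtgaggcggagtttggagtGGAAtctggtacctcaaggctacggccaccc
Cr2: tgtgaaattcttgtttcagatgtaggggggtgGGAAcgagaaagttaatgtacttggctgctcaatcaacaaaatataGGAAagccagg
Fcgr2b: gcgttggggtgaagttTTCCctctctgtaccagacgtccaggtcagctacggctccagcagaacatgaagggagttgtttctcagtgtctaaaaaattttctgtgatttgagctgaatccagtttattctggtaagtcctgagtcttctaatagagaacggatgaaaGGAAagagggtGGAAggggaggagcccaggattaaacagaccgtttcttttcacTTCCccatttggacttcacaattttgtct
GGAA on either strand occurred 4 times before Cd79a, 2 times in the shorter Cr2 stretch and 4 times before Fcgr2b. It occurred at least once in 93.4% of 32851 promoters of 250 bases, with a median of 3, so that holding it does not set these genes apart. The octamer ATTTGCAT, known from immunoglobulin promoters, was in 1.60% of all promoters and in none of the 3. The motif CCCNNGGG, close to the sites of EBF1, a factor known to act on Cd79a, was in 11.8% of all promoters and in none of the windows of these 3. Only exact matches were counted, so a site of EBF1 that departs from these letters would be missed. A match or a missing match in these letters describes the window alone, and capitals do not show which factor binds there.

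Across all genes, 1.08% were called between cKO and control light zone cells, 0.690% as higher and 0.393% as lower. A call is an adjusted p under 0.05 (edgeR quasi-likelihood test, Benjamini-Hochberg over 15789 genes). Of the 8 receptor and coreceptor genes, 2 were called in the light zone: Cd79a was lower and Fcgr2b was higher. In the dark zone 0.627% of all genes were called, 0.310% as higher and 0.317% as lower. There 3 of the 8 were called, Cd79a and Cr2 as lower and Fcgr2b as higher. The median log2 fold change over all genes was 0.019 in the light zone and 0.011 in the dark zone.

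**Figure D1:**
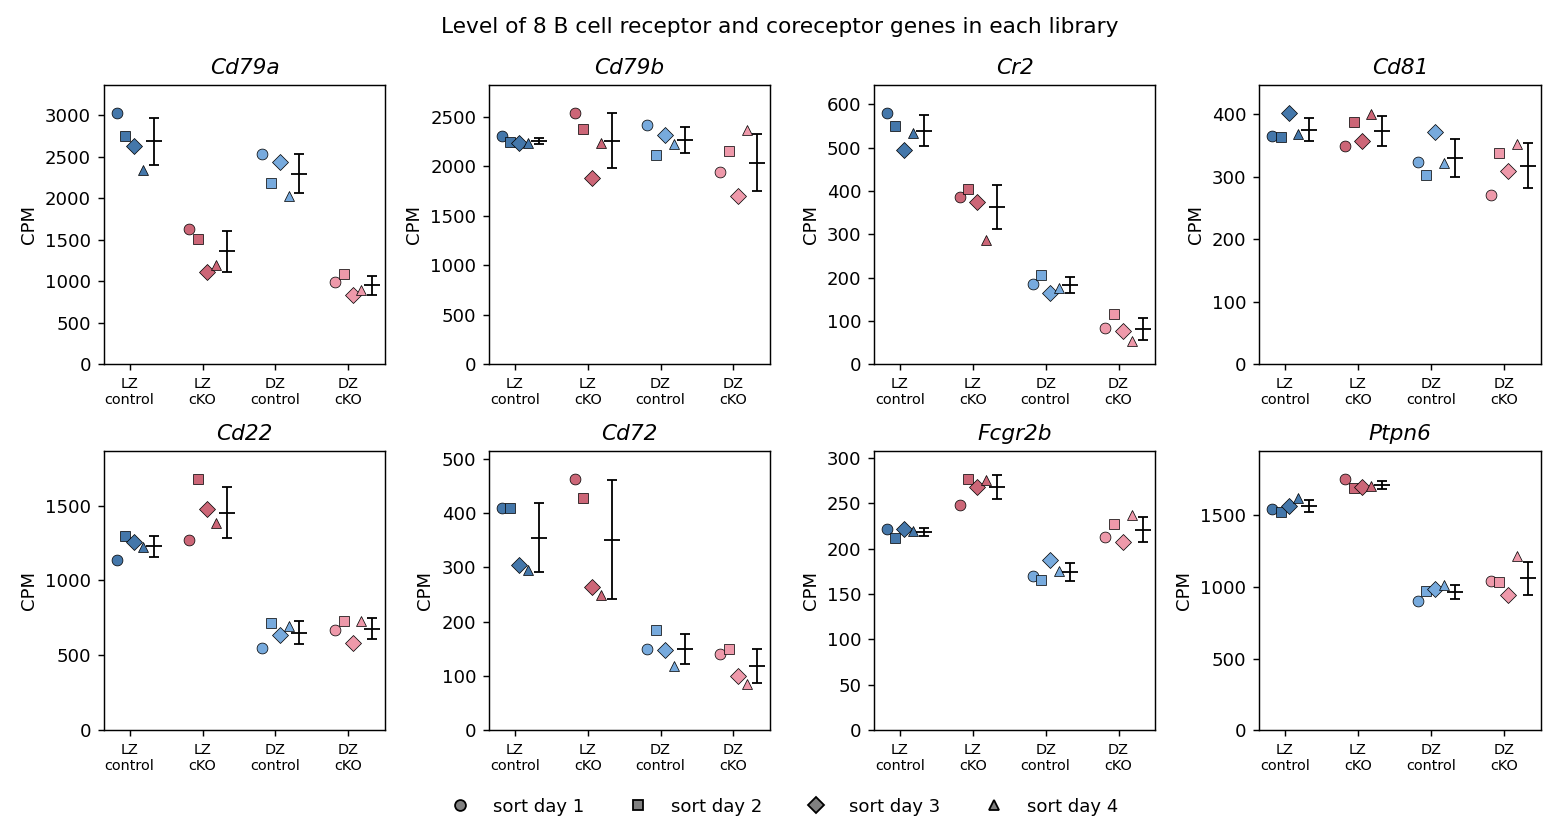
Levels of the 8 genes in CPM (TMM-scaled, y axes from 0) in each of the 16 libraries, by group on the x axis, with marker shapes for the sort day and bars for the mean ± SD of 4 libraries. Cd79a, Cr2 and, by a smaller difference, Fcgr2b separate the genotypes in both zones. In both genotypes Cr2, Cd22, Cd72, Ptpn6 and Fcgr2b lie higher in the light zone.

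Cd79a, the gene of the CD79A chain and the carrier of the Cre allele, was read at 3025, 2749, 2626 and 2342 CPM in LZ control libraries on sort days 1 to 4 and at 1623, 1504, 1112 and 1190.2 CPM in LZ cKO libraries. Dark zone levels were 2535, 2179, 2433 and 2024 CPM in controls and 987, 1087, 829.7 and 892 CPM in cKO cells. The cKO libraries lay below all control libraries in both zones. Mean levels were 50.5% of control in the light zone and 41.4% in the dark zone. This was a log2 fold change of -0.98 ± 0.13 for the light zone (SE, adjusted p = 0.00151, edgeR) and of -1.27 ± 0.13 for the dark zone (adjusted p = 9.97e-05), lower on 4 of 4 sort days in each. In males alone, with 2 pools per genotype, the values were -0.88 and -1.19 and missed the threshold (adjusted p = 0.143 and 0.0544, edgeR), and in females alone -1.12 and -1.37 passed it (adjusted p = 0.0441 and 0.0244).

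Cd79b, the gene of the partner chain, was not called between the genotypes in either zone. LZ control libraries read 2303, 2249, 2239 and 2233 CPM and LZ cKO libraries 2539, 2375, 1883 and 2229.9 CPM. Dark zone controls read 2420.3, 2111, 2313 and 2229 CPM and cKO libraries 1937, 2149.7, 1694 and 2367 CPM. The groups overlapped in both zones, and the cKO libraries were spread over a wider range than the controls. Its light zone log2 fold change of 0.00041 ± 0.10 had an interval of 2 SE on each side from -0.20 to 0.20 (adjusted p = 0.999, edgeR). In the dark zone it was -0.16 ± 0.10, with an interval from -0.36 to 0.05 (adjusted p = 0.63, edgeR). A change in Cd79b of the size measured for Cd79a lies outside both intervals.

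The ratio of Cd79b to Cd79a reads within a library does not depend on how libraries are scaled, and gives the balance of the paired chains at the RNA level apart from the difference in transcript length. LZ control libraries held 0.761, 0.818, 0.853 and 0.953 Cd79b reads per Cd79a read on days 1 to 4, and LZ cKO libraries 1.56, 1.58, 1.69 and 1.87. DZ control libraries held 0.955, 0.969, 0.951 and 1.10, and DZ cKO libraries 1.96, 1.98, 2.04 and 2.65. Each cKO library exceeded each control library of its zone, and day 4 gave the highest ratio in each of the 4 groups. Because it uses the same Cd79a reads, which already separated the genotypes in both zones, this ratio is not separate support for that difference. The ratio rose 1.98-fold in the light zone, from 0.846 ± 0.0807 to 1.68 ± 0.143, and 2.16-fold in the dark zone, from 0.994 ± 0.0719 to 2.16 ± 0.332 (SD, n = 4; exact two-sided permutation p = 0.0286 in each zone, the smallest that 4 against 4 libraries allow, and 0.0286 after adjustment over the 2 zones). With the libraries paired by sort day, an exact sign-flip test gave p = 0.125, the smallest that 4 pairs allow.

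**Figure D2:**
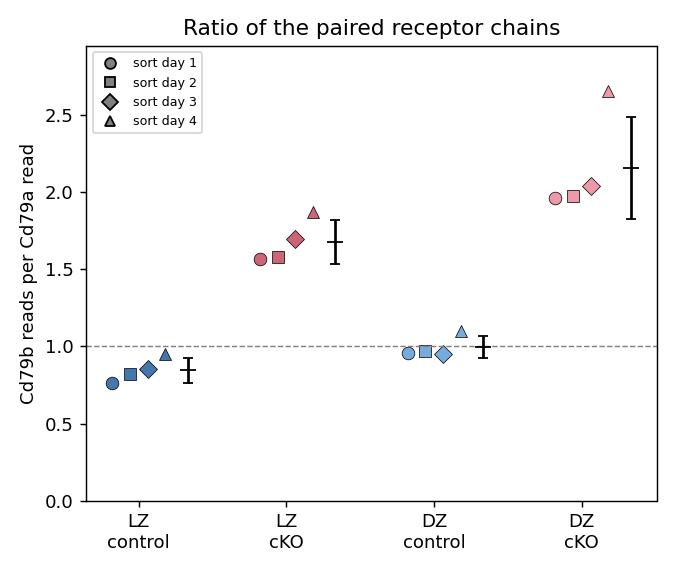
Cd79b reads per Cd79a read in each library (y axis from 0, no unit) by group on the x axis, with shapes for the sort day, bars for the mean ± SD of 4 libraries and a dashed line at 1. Control libraries lie between 0.761 and 1.10, and cKO libraries between 1.56 and 2.65.

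Cr2, the complement receptor of the coreceptor complex, was lower in cKO cells of the dark zone. DZ control libraries read 185, 207, 164 and 177 CPM on days 1 to 4, and DZ cKO libraries 84.2, 115, 75.8 and 54.0 CPM. These groups did not overlap, and the cKO mean was 45.0% of control. It was lower on 4 of 4 days, by a log2 fold change of -1.15 ± 0.17 (SE, adjusted p = 0.00409, edgeR). The call was lost when sort day 1 or sort day 3 was left out, at -1.17 (adjusted p = 0.0661, edgeR) and -1.16 (adjusted p = 0.0627), and in a fit of the dark zone libraries alone, at -1.15 (adjusted p = 0.0554).

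In the light zone, Cr2 read 580.0, 549, 494 and 534 CPM in controls and 386, 404, 375 and 287 CPM in cKO cells. Here too every cKO library lay below every control library, at a mean of 67.3% of control. The log2 fold change of -0.57 ± 0.17 missed the threshold over all genes (adjusted p = 0.129, edgeR), with an interval of 2 SE from -0.91 to -0.23. It passed with the sort day as a block, at -0.59 (adjusted p = 0.0193, edgeR), and by DESeq2, at -0.57 (adjusted p = 0.0356). The Cr2 change differed between the zones by 0.58 ± 0.24 on the log2 scale, which did not pass (adjusted p = 1.0, edgeR interaction).

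Genes of other cell types were read beside Cr2. Follicular dendritic cells, which also express CR2, were represented by 9 matched genes of a list of their own and other stromal markers, and these summed to between 0 and 23.2 CPM per library. Cxcl13 was at most 0.033 CPM in any library, while Vcam1 reached 23.2 CPM and averaged 3.20 in DZ control and 12.5 in DZ cKO libraries. The sum of the list had medians of 3.32 and 5.12 CPM in LZ control and LZ cKO libraries. In the dark zone its medians were 1.07 CPM in control and 17.9 CPM in cKO libraries. A list of 10 naive, marginal zone and memory B cell genes had medians of 0.73 and 0.78 on the log2 scale in the light and dark zone, with 9 of 10 positive in each. Of these, 1 passed in the light zone (Gpr183, as higher) and 0 in the dark zone. Summed levels of that list ran from 1330.5 to 1878 CPM in LZ control and 1571 to 2791 in LZ cKO libraries, and from 435 to 748 and 572 to 1112 CPM in the dark zone. A list of 6 plasma cell genes had medians of 0.026 and 0.69 on the log2 scale, with 3 and 6 positive and 0 called in either zone. Its sum had medians of 1788 CPM in LZ control and 2158 CPM in LZ cKO libraries. Dark zone medians were 2934 CPM in control (2715 to 8244) and 6269 CPM in cKO libraries (2492 to 12143). The part of any of these cells in the Cr2 values was not tested.

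Cd81, the tetraspanin of the same complex, did not pass in any comparison. LZ control libraries read 364, 364, 402 and 369 CPM and LZ cKO libraries 348, 387, 357 and 399 CPM. DZ control libraries read 323, 302, 372 and 321 CPM and DZ cKO libraries 270.3, 337, 308 and 353 CPM. The genotypes overlapped in both zones. Log2 fold changes were -0.0070 ± 0.089 for light zone cells (interval of 2 SE from -0.19 to 0.17, adjusted p = 0.989, edgeR) and -0.055 ± 0.089 for dark zone cells (from -0.23 to 0.12, adjusted p = 0.891).

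Fcgr2b, the inhibitory Fc receptor, was the gene called higher in cKO cells of both zones. LZ control libraries read 221, 212, 222 and 219 CPM and LZ cKO libraries 249, 277, 268 and 276 CPM. DZ control libraries read 169.6, 165, 188 and 175 CPM and DZ cKO libraries 213, 227, 207 and 237 CPM. The genotypes did not overlap in either zone. The rise was small, to 122% of control in the light zone (log2 fold change 0.29 ± 0.065, adjusted p = 0.0436, edgeR) and 127% in the dark zone (0.34 ± 0.065, adjusted p = 0.0241).

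Both Fcgr2b calls lay near the threshold. The light zone call was lost in 22 of 29 alternative fits and the dark zone call in 14 of 29, with the log2 fold change between 0.26 and 0.33 and between 0.29 and 0.41. Leaving out 1 library at a time ended the light zone call in 13 of 16 cases (all but LZ cKO of day 1 and DZ cKO of days 3 and 4) and the dark zone call in 6 of 16 (DZ control of days 1, 2 and 4, DZ cKO of days 2 and 4 and LZ control of day 4). Both calls were lost without any 1 of the sort days, with adjusted p of 0.145, 0.296, 0.165 and 0.320 for the light zone and 0.139, 0.218, 0.0664 and 0.318 for the dark zone (edgeR, days 1 to 4 left out in turn). With the sort day as a block it passed in both, at 0.29 (adjusted p = 0.0145) and 0.34 (adjusted p = 0.00878).

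Macrophages also express Fcgr2b, and the sum of their marker genes was higher in the cKO than in the control library of the same sort day in 4 of 4 pairs in each zone. The 10 genes summed to 42.3, 383, 22.9 and 61.8 CPM in LZ control and 189, 481, 77.2 and 202 CPM in LZ cKO libraries on days 1 to 4. The dark zone sums were 19.9, 394, 14.7 and 37.7 CPM in controls and 547, 1223, 42.0 and 368 CPM in cKO cells. None of the 10 was called in either zone, with medians of 0.82 and 2.62 on the log2 scale, 9 of 10 and 10 of 10 positive. Fcgr2b was likewise higher in cKO in 4 of 4 same-day pairs in each zone, and the part of macrophage RNA in its rise was not tested. The related gene Fcgr3, named after its values were seen because its sequence is close to that of Fcgr2b and reads could be split between them, was between 0.461 and 26.0 CPM in all 16 libraries, highest in the DZ cKO library of day 2.

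**Figure D3:**
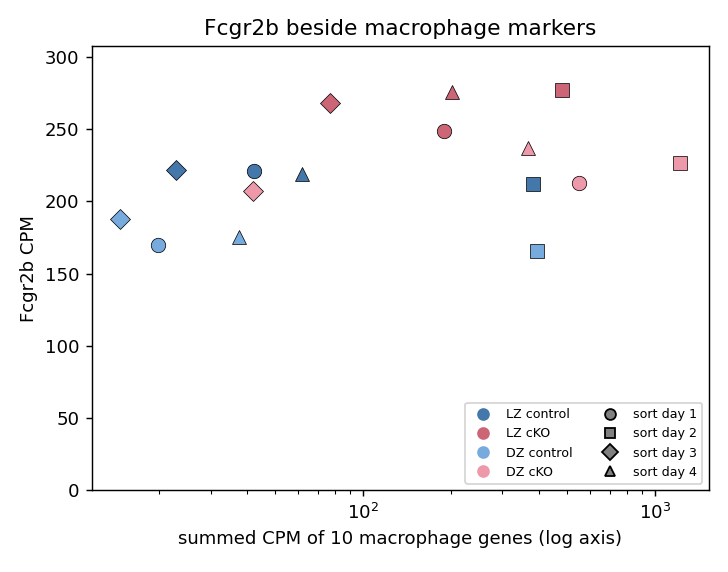
Fcgr2b level (y axis from 0, CPM) against the summed level of 10 macrophage genes (x axis, CPM, log scale) in the 16 libraries, with colours for the group and shapes for the sort day. Macrophage sums run from 14.7 CPM (a DZ control library) to 1223 CPM (a DZ cKO library). LZ cKO libraries have sums of 77.2 to 481 CPM and Fcgr2b levels of 249 to 277 CPM. The part of macrophage RNA in these levels was not tested.

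Cd22, a sialic acid-binding inhibitory lectin, read 1134, 1296, 1257 and 1223 CPM in LZ control and 1273, 1679, 1476 and 1385 CPM in LZ cKO libraries. It was higher in cKO on 4 of 4 days, but the groups overlapped, and the log2 fold change of 0.24 ± 0.10 did not pass (adjusted p = 0.323, edgeR; interval of 2 SE from 0.035 to 0.45). Dark zone values were 551, 719, 637 and 697 CPM in controls and 669, 732, 580.1 and 727 CPM in cKO libraries, a difference of 0.056 ± 0.10 (adjusted p = 0.909). Cd22 lies on chromosome 7 with Cd79a, 5.96 Mb from it.

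Cd72, an inhibitory receptor of the C-type lectin family, varied with the sort day in both genotypes and was not called between them. LZ control libraries read 409.8, 409, 304 and 295 CPM and LZ cKO libraries 463, 429, 264 and 249 CPM. DZ control libraries read 150.5, 184, 148 and 117 CPM and DZ cKO libraries 139.7, 149, 99.0 and 85.3 CPM. In the light zone the male libraries of days 1 and 2 were the high ones in both genotypes, and sex cannot be told apart from day. Over all 4 days the genotypes differed by -0.013 ± 0.22 on the log2 scale in light zone cells (interval of 2 SE from -0.46 to 0.44, adjusted p = 0.991, edgeR) and by -0.34 ± 0.23 in dark zone cells (from -0.79 to 0.11, adjusted p = 0.636). Within males alone the light zone value was 0.13 and within females alone -0.23, and in the dark zone -0.21 and -0.53.

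Ptpn6, the phosphatase that acts below CD22 and CD72, had a slightly higher mean in cKO libraries and passed in neither zone. LZ control libraries read 1548, 1526, 1568 and 1622 CPM and LZ cKO libraries 1756, 1689, 1701 and 1709 CPM. These groups did not overlap. The dark zone groups did, with 899, 969.7, 983 and 1017 CPM in controls and 1043, 1035, 948 and 1217 CPM in cKO libraries. Both zones gave a log2 fold change of 0.13 ± 0.072, with intervals of 2 SE from -0.01 to 0.27 and from -0.01 to 0.28 (adjusted p = 0.471 and 0.535, edgeR).

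Zone differences were found for more of the 8 genes. Between light and dark zone, 7.49% of all genes were called in control mice, 4.16% as higher and 3.33% as lower in the light zone, and 9.09% in cKO mice, 4.91% as higher and 4.18% as lower. In control mice 5 of the 8 receptor genes were called, all higher in the light zone: Cr2, Cd72, Cd22, Ptpn6 and Fcgr2b. In cKO mice the same 5 were called higher, and Cd79a with them.

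In control cells, Cr2 averaged 539 ± 35.7 CPM in the light and 183 ± 18.1 CPM in the dark zone (SD, n = 4), a log2 difference of 1.56 ± 0.17 (adjusted p = 5.05e-05, edgeR). Cd72 averaged 354 ± 63.5 and 150 ± 27.1 CPM, a difference of 1.24 ± 0.23 (adjusted p = 0.00299, edgeR). The zone difference was 0.91 ± 0.11 for Cd22, from 651 ± 75.3 CPM in the dark to 1227 ± 69.2 in the light zone (adjusted p = 6.41e-05, edgeR). For Ptpn6 it was 0.70 ± 0.073, from 967 ± 49.6 to 1566 ± 40.9 CPM (adjusted p = 3.09e-05, edgeR). Fcgr2b had the smallest of the differences that passed, 0.32 ± 0.065, from 175 ± 9.67 to 218 ± 4.57 CPM (adjusted p = 0.00584, edgeR), and it missed the threshold without sort day 1, 2 or 4 (adjusted p = 0.0610, 0.0611 and 0.0599). None of these 5 overlapped between the zones in control mice, but they had been called on the same values. The share of all genes without overlap was not counted.

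Of the paired chains, Cd79b had the same level in both zones of control mice within its error, 2256 ± 32.2 CPM in the light and 2268 ± 131 CPM in the dark zone, with a log2 difference of -0.0079 ± 0.10 and an interval of 2 SE from -0.21 to 0.19 (adjusted p = 0.985, edgeR). Cd79a was 0.23 ± 0.13 higher in the light zone of control mice and did not pass (adjusted p = 0.346, edgeR). In cKO mice its difference was 0.52 ± 0.13 and passed (adjusted p = 0.0177), but not without any 1 of the sort days (edgeR, adjusted p of 0.0810, 0.0761, 0.0537 and 0.0537 for days 1 to 4), nor without LZ cKO of day 1 or 2 or DZ cKO of day 3 or 4 alone. Cd81 was 0.19 ± 0.089 higher in the light zone of control and 0.23 ± 0.089 higher in that of cKO mice, which did not pass (adjusted p = 0.267 and 0.123, edgeR).

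In cKO mice, Cr2 had the largest zone difference of the 8 genes, 2.14 ± 0.18 on the log2 scale (adjusted p = 2.74e-06, edgeR), from 82.3 ± 25.3 CPM in the dark to 363 ± 51.8 CPM in the light zone (SD, n = 4). The other differences in cKO mice were 1.57 ± 0.23 for Cd72, 1.10 ± 0.11 for Cd22, 0.69 ± 0.073 for Ptpn6 and 0.27 ± 0.065 for Fcgr2b. The Fcgr2b difference of cKO mice missed the threshold without any 1 of the sort days (adjusted p of 0.0604, 0.0995, 0.139 and 0.0680, edgeR), and without the LZ cKO library of day 2 alone. Whether the genotype effect differed between the zones was tested as an interaction, in which 0.00% of all genes and 0 of the 8 were called by edgeR. At an unadjusted p under 0.05, 466 genes passed, 1 of the 8 among them (Cr2), and DESeq2 called 4 genes in all and 0 of the 8. The interaction was 0.29 ± 0.18 for Cd79a, 0.19 ± 0.15 for Cd22 and 0.33 ± 0.32 for Cd72 (adjusted p = 1.0 for each, edgeR).

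**Figure D4:**
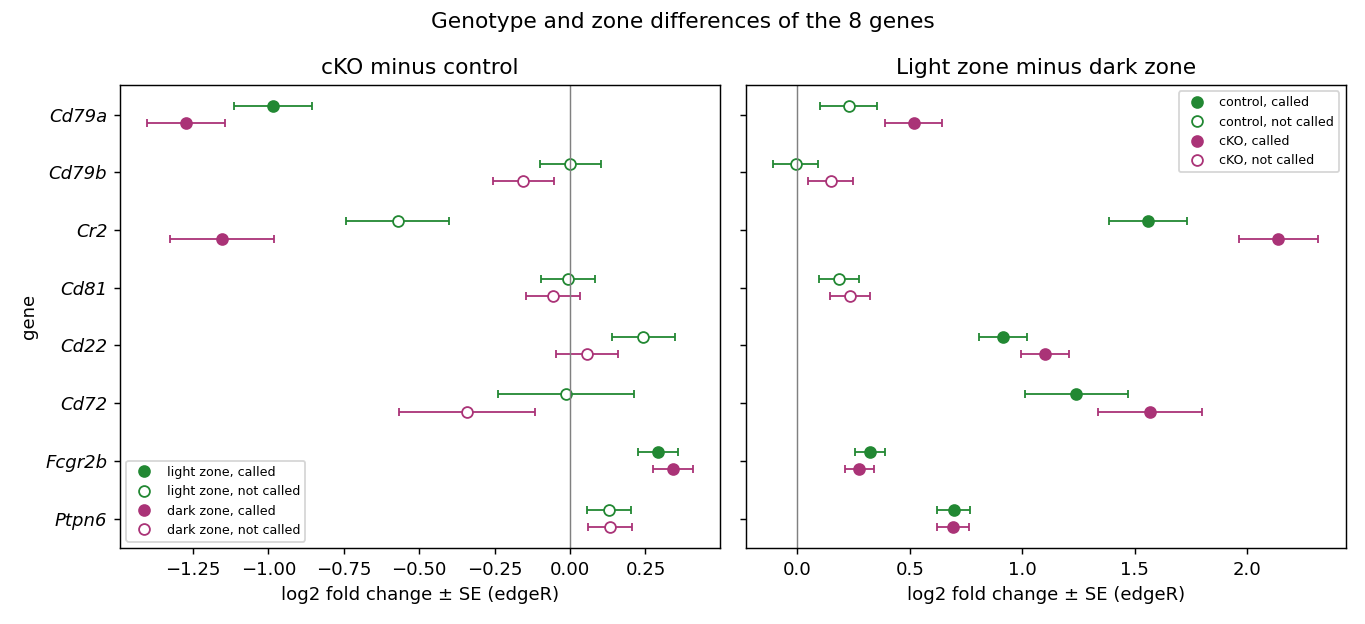
Log2 fold changes ± SE (x axis, edgeR) of the 8 genes (y axis), with cKO minus control on the left (light zone in green, dark zone in purple) and light minus dark zone on the right (control in green, cKO in purple); filled points passed an adjusted p under 0.05. On the left Cd79a lies at -0.98 and -1.27, and on the right Cr2 lies at 1.56 and 2.14.

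The genes whose log2 CPM followed each of the 8 most closely over the 16 libraries were taken among 9014 genes, as a description. For Cd79a they were Aim2 (r = 0.939), Lacc1 (0.932) and Isoc2b (0.925). Cr2 was followed by Vasp (0.977), Srebf2 (0.959) and Hcls1 (0.958). Cd22 was followed by Sorl1 (0.986), Hvcn1 (0.976) and Il21r (0.972), and Ptpn6 by Hvcn1 (0.972), Cd22 (0.968) and Il21r (0.968), so that 2 of 3 genes were shared. Cd72 was followed by Snn (0.980), Cyb561a3 (0.972) and Ephx1 (0.971), and Fcgr2b by Gsn (0.982), Parvg (0.955) and Ppfia4 (0.952). Correlations were lower for the genes that varied least, with Gnai2 (0.886), Tmppe (0.866) and 1110038F14Rik (0.862) beside Cd79b and Nudt16l1 (0.902), Psme1 (0.884) and Adck1 (0.875) beside Cd81. All 16 points share the zone, genotype and pools that the design gives them.

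Of 25 other B cell surface receptor genes tested, 10 were higher, 1 was lower and 14 were not called in the light zone of control mice (4.16% and 3.33% of all genes were higher and lower), with a median log2 difference of 0.66 against -0.00026 over all genes. The highest were Fcer2a, the low-affinity IgE receptor (1.78 ± 0.17, adjusted p = 1.40e-05, edgeR), and Cd38, an NAD-cleaving ectoenzyme (1.45 ± 0.24, adjusted p = 0.00125). The others were Cd82 (0.99), the BAFF receptor Tnfrsf13c (0.92), Cd180 (0.91), Cd53 (0.77), Pecam1 (0.70), Ly86 (0.68), Ptprc (0.66) and Ms4a1 (0.51). Cd24a, a glycoprotein linked to the membrane by lipid, was lower (-0.45 ± 0.089, adjusted p = 0.00523).

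In cKO mice 14 of the 25 were higher and 1 lower in the light zone (4.91% and 4.18% of all genes), with a median of 0.74. The 10 of the control comparison were called again, and Cd37 (0.72), Siglecg (0.60) and Fcrl1 (0.43) were among the further ones, while Cd24a was again lower (-0.59). Between the genotypes 0 of the 25 were called by edgeR in either zone, with medians of 0.16 and 0.11.

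Among 25 kinases and adaptors that carry the receptor's signal, 1 was called between the genotypes, and in both zones, where 1.08% (light) and 0.627% (dark) of all genes were called. Cd2ap, an adaptor that links receptors to the actin skeleton, was lower in cKO cells, at -0.66 ± 0.11 in the light zone (adjusted p = 0.00786, edgeR) and -0.89 ± 0.11 in the dark zone (adjusted p = 0.000724). The median of the 25 was 0.066 in the light zone and -0.057 in the dark zone. Nfatc1, Fyn and Malt1 did not pass, with a light zone value of -0.35 for Nfatc1 (adjusted p = 0.101, edgeR) and dark zone values of 0.49 for Fyn (adjusted p = 0.0818) and -0.52 for Malt1 (adjusted p = 0.212).

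Between the zones, where 4.16% of all genes were higher and 3.33% lower in control mice and 4.91% and 4.18% in cKO mice, 7 of these 25 were higher and 1 lower in the light zone of control mice (among them Bank1 at 0.67, Fyn at 0.64, Pik3ap1 at 0.61, Prkcb at 0.54, Hcls1 at 0.43 and Grb2 at 0.40, with the kinase Syk lower at -0.51 ± 0.15, adjusted p = 0.0463, edgeR). In cKO mice 9 were higher and 0 lower by edgeR, the same 7 with Vav2 (0.62) and Rasgrp3 (0.30), and Syk did not pass there (-0.32, adjusted p = 0.208).

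Of 20 negative regulators that act with or beside Ptpn6, 0 were called between the genotypes by edgeR in either zone, with medians of 0.14 and 0.014. In the light zone the furthest from 0 were Sla (0.37), Themis2 (-0.24) and Ptpn2 (-0.23), and in the dark zone Ptprj (-0.52), Ptpn22 (0.46) and Inppl1 (0.44), none of which passed. Between the zones of control mice 3 of the 20 were higher in the light zone (4.16% of all genes), Ptpn22 (1.15), Themis2 (1.13) and Pag1 (0.99). In cKO mice Pag1 (1.01), Themis2 (0.91) and Dok1 (0.48) were higher, 3 of 20 against 4.91% of all genes.

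PTBP1 crosslink sites lay inside the spans of 8 of the 8 genes. PTBP1 binds pyrimidine-rich RNA and is known for its part in splicing and in the processing and stability of mRNA. The list that the authors called after summing the replicates held 244659 sites with 432167 cDNAs, and a site's score is a count of cDNAs. At least 1 site lay in 49.3% of 10430 tested genes with a span and strand, and in 88.5% of the 697 genes expressed at least as highly as the lowest of the 8. The spans of the 8 held 402 sites in all and 0 on the opposite strand, though the strand of Cd79b was itself read from its sites. Sites are not scaled to expression in the cultured cells, and no control immunoprecipitation was used here. Exons and introns are not named for them, as no exon annotation of this build was used here.

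Fcgr2b held the most sites of the 8, 164 sites with 321 cDNAs on chr1:170960558-170976071 (minus strand), more sites than 98.2% of the 10430 genes and than 90.4% of the 697 expressed as highly. Its cDNAs were gathered at the gene's end, with 230 of 321 (71.7%) beyond 90% of the span. In the clusters here and below, neighbouring sites lie at most 15 bases apart, and replicate lists are counted with sites up to 15 bases outside. The largest cluster covered chr1:170961910-170962020 with 45 sites and 110 cDNAs, and 4 of the 5 replicate lists had sites in or near it. Its strongest site, with 16 cDNAs, was 14056 bases from the gene's start. A further 2 clusters at chr1:170961649-170961709 (46 cDNAs) and chr1:170961768-170961808 (41 cDNAs) had sites in 3 replicate lists each. The replicate lists held 4, 48, 11, 42 and 28 sites in Fcgr2b, and 31 positions were in at least 2 of them.

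In Cd79a, on chr7:24897497-24901858 (plus strand), 21 sites with 41 cDNAs formed 4 clusters, at 13.0%, 16.3%, 33.9% and 49.5% of the span. The largest, at chr7:24898210-24898253, 713 bases into the gene, held 12 sites and 27 cDNAs, 65.9% of the gene's total. In or near it, 3 replicate lists had sites. The replicate lists held 0, 2, 0, 7 and 5 sites, and none of the cDNAs lay beyond 90% of the span. Cd79b, on chr11:106311341-106314562 (minus strand), had 16 sites with 31 cDNAs in 5 clusters of at most 9 cDNAs, and no position in more than 1 replicate list. Its strand was read from the sign of its sites.

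Ptpn6, on chr6:124720707-124738709 (minus strand), had 54 sites with 88 cDNAs, of which 24 fell in a cluster at chr6:124722793-124722826 with sites in 2 replicate lists. Its replicate lists held 7, 11, 2, 5 and 0 sites, and 5 positions were in at least 2 of them. Cd22, on chr7:30865404-30880342 (minus strand), had 89 sites with 137 cDNAs spread over 24 clusters, the largest with 14 cDNAs, and lists 1 and 2 held none of them. Although Cd22 had more sites than Ptpn6, 0 of its 89 were in 2 replicate lists.

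Cr2, on chr1:195136811-195176880 (minus strand), is the longest of the 8 genes and held 28 sites with 44 cDNAs in 10 clusters, none with more than 9 cDNAs. These were spread between 4420 and 31312 bases from the start, and no position was found in 2 replicate lists. Cd81, on chr7:143052750-143067930 (plus strand), had 24 sites with 31 cDNAs, 28 of them (90.3%) beyond 90% of the span, but the 5 replicate lists held none of these sites. Cd72, on chr4:43447724-43455102 (minus strand), had 6 sites with 7 cDNAs, the fewest of the 8. Cr2 and Cd81 overlap long non-coding RNA genes on the other strand (Gm32313 and R74862), and Cd72 overlaps the coding gene Tesk1 at its end, and without a stated strand setting their mRNA counts could share reads.

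**Figure D5:**
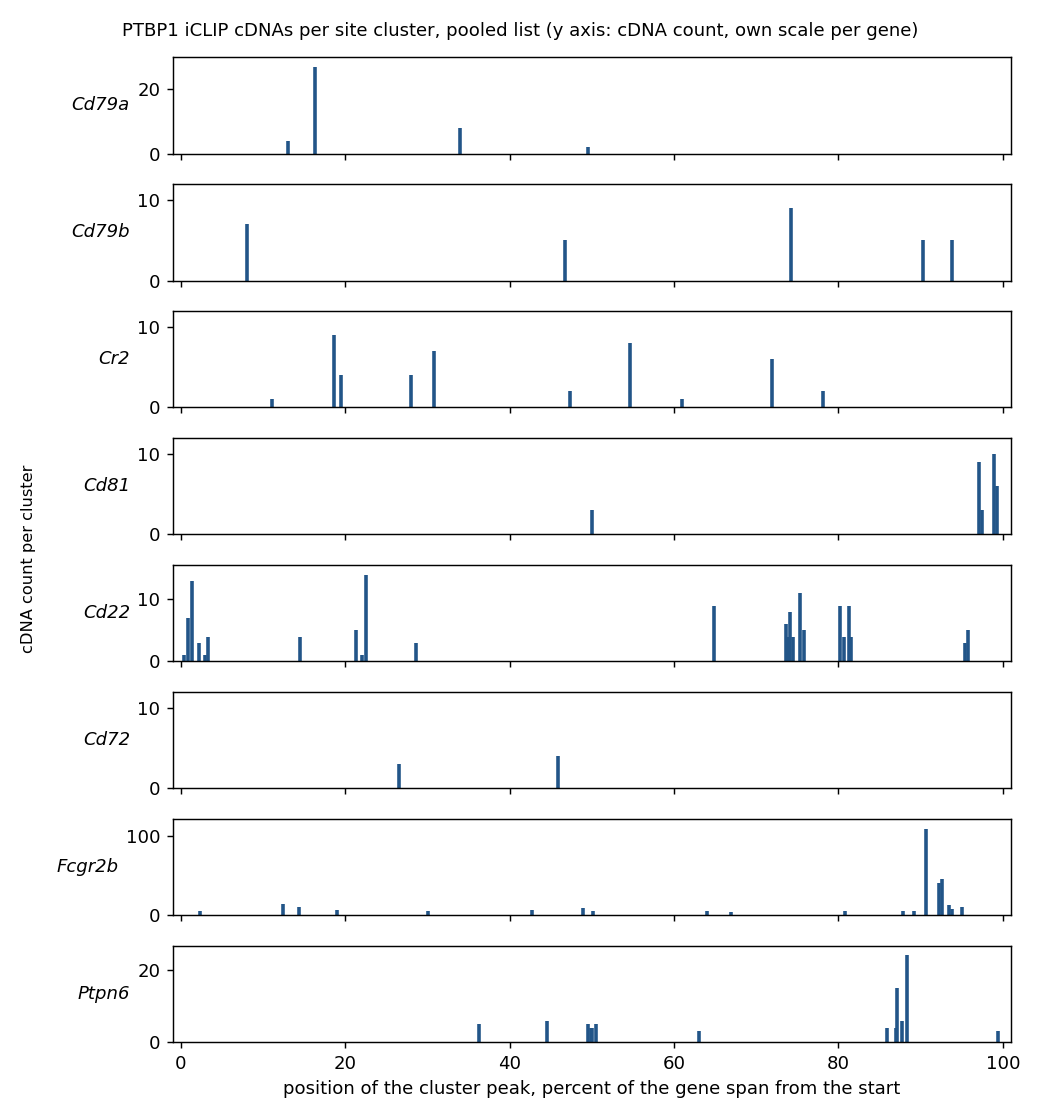
cDNA counts of PTBP1 iCLIP site clusters (y axis, its own scale for each gene) against the position of the cluster's strongest site (x axis, percent of the gene span from the start) in the pooled list. The tallest cluster of Fcgr2b, 110 cDNAs, stands at 90.6% of the span, and that of Cd79a, 27 cDNAs, at 16.3%.

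Set beside the mRNA values, the genes with sites of 3 or more replicate lists in or near 1 cluster were Fcgr2b (3 clusters) and Cd79a (1 cluster). Both were called in both zones, but Cd79a carries the Cre allele in cKO mice. The Fcgr2b calls lay near the threshold and were lost in 22 (light zone) and 14 (dark zone) of 29 alternative fits. Cr2, which was called in the dark zone, had no such cluster, nor did the 5 genes called in neither zone. The number of genes is too small for a test, and the share of all genes with such a cluster was not counted. The sites come from another cell state.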

How the data were processed

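Raw counts per Ensembl identifier, in whole numbers, were deposited by the authors for 16 mRNA libraries. The submitters' processing notes list Trim Galore 0.4.2, HISAT2, HTSeq and GRCm38. Strand setting and annotation release: not given in the sources used here. Per the labels' protocols, libraries came from 2 ng of RNA, 0.5 ng of cDNA and 8 PCR cycles. The 5 lines that name no gene (41.4% to 49.8% of entries) were left out. The deposited iCLIP score is a signed cDNA count per site. Per the file headers, sites passed a false discovery rate of 0.05 from 100 permutations within 15 nt on mm10 with Ensembl 75, and the pooled list sums the replicates. The submitters' processing notes name Bowtie, and 4 random barcode bases allow 256 molecules per position. Gene spans are from RefSeq GRCm38.p6, and 10430 tested genes had one with a strand.

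Counts were fitted by robust quasi-likelihood in edgeR 4.0.16 (R 4.3.3) over all 16 libraries, with TMM, filterByExpr at its minimum count of 10 and two-sided contrasts. The common biological coefficient of variation was 40.3%. The script was tested on simulated data. SE is the log2 fold change divided by the square root of F. Alternatives were a replicate block, DESeq2 1.42.0, other scalings, no filter, only the compared groups, leaving out libraries or sort days, and 1 sex. The replicate number marks the day of sorting in the labels and both zones of a number and genotype share a pool, so numbers pair libraries. Same-numbered libraries correlated at 0.0944 to 0.39 in their deviations from group means, and 24 of 24 correlated best with their own number. Replicates of 1 group differed beyond sampling noise (chi-square per degree of freedom 18.2 to 137). Genes named from the lists were those called and up to 4 others of largest change with an average log2 CPM of at least 3. Likeness used log2 CPM with a prior count of 2. The genes, lists and tests were chosen with earlier results of these data known. Values of some list genes are not reported here.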

Additional observations from a re-analysis of the deposited data

Results flagged for a closer look

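Of the 32 sets of 4 libraries checked (8 genes in 4 groups), 1 held a library far from the others: Cd81 in the LZ control library of sort day 3, at 401.9 CPM, against 364 to 369 CPM in the other 3. Chance alone marks about 1 in 20 such sets. With that library left out, the Cd81 log2 fold change in the light zone was 0.028, and it did not pass.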

How the results depend on the processing

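The 29 alternatives kept the direction of the calls for Cd79a, Cr2 and Fcgr2b between the genotypes. In the light zone 1 of the 8 genes (Cd79a) was called, in place of 2, without immunoglobulin genes, with no filter on low counts, with only the compared groups, without sort day 1, 2, 3 or 4 and in females, and 0 by edgeR in males. In the dark zone 1 (Cd79a) was called, in place of 3, with only the compared groups, without sort day 1 or 3 and in females, and 0 in males. In males 3 were called between the zones of control mice, in place of 5. The cause was not tested. Leaving out 1 library gave 1 to 2 calls in the light zone and 2 to 3 in the dark zone. The replicate block (sort day) left the log2 differences of the Cd79b to Cd79a ratio at 0.988 and 1.11, with p = 0.125 by exact sign-flip test of 4 pairs, and it changed no other call of the 8 genes than Cr2 in the light zone.

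Values near 0 that were not called changed sign. The light zone Cd79b change was -0.00621 with the replicate block, -0.00502 with upper-quartile scaling, -0.0120 without immunoglobulin genes, -0.00179 with no filter, -0.0588 and -0.0293 without sort day 1 and 2, and -0.128 in females, with -0.0596 to 0.0805 when 1 library was left out. The light zone Cd81 change was 0.00274 and 0.0448 without sort day 1 and 3, 0.0183 in males, and -0.0410 to 0.0283 with 1 library left out. For Cd72 it was 0.0300 and 0.0466 without sort day 3 and 4, 0.127 in males, and -0.174 to 0.121 with 1 library left out. In the dark zone Cd22 was at -0.0154 without sort day 1, -0.0280 in females and -0.0207 to 0.118 with 1 library left out, and Cd81 at 0.0264 without sort day 3 and -0.114 to 0.0151 with 1 library left out. The zone difference of Cd79b in control mice was 0.0127 without sort day 1, 0.0138 in males and -0.0410 to 0.0249 with 1 library left out.

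Over all genes, calls in the light zone were 868 with the replicate block, 546 by DESeq2, 102 with no filter and 98 with the compared groups, in place of 171, and 17 to 62 without 1 sort day. In the dark zone they were 517, 432 and 52 with the block, DESeq2 and the compared groups, in place of 99, and 23 to 49 without 1 sort day. Between the zones the block gave 2166 in control and 2727 in cKO mice, in place of 1183 and 1436, sort days left out gave 576 to 690 and 672 to 877, and the compared groups gave 820 in cKO mice. Leaving out 1 library moved these counts by over 1.5 times in the light zone (58 to 102, for each LZ control and for LZ cKO of days 1, 2 and 4), in the dark zone (49 to 62, for DZ control of days 3 and 4 and DZ cKO of days 2 and 4), between the zones of control mice (787 and 753, for LZ control of days 1 and 2) and in cKO mice (833, for LZ cKO of day 2). Males alone gave 3, 2, 288 and 451, and females alone 9, 4, 257 and 364. The 402 iCLIP sites fell to 18 at 5 or more cDNAs and to 38 in at least 2 replicate lists, and 72.6% of all pooled sites had a single cDNA. The cause of the low overlap between replicate lists was not tested.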
